A study of Mus musculus with 12 samples.

Results

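Mitosis and spindle genes were followed as 55 named genes, taken by symbol from a table of 21958 genes measured in mouse bone marrow cells. They comprise 6 genes for cyclins, Cdk1 and its phosphatases, 6 for mitotic kinases and the chromosomal passenger complex, 5 for the spindle checkpoint and 8 for the centromere and kinetochore. A further 8 encode kinesins, 10 serve spindle assembly and cytokinesis, 7 encode condensin and chromosome structure proteins, and 5 encode partners of the anaphase-promoting complex or separase. All 55 passed the filter on low counts. The RNA came from wild-type mice in 3 groups of 4 libraries. Control mice were untreated, model mice had CTX-induced suppression of the marrow, and cornus mice were given nanoparticles that self-assemble from Cornus officinalis, a dogwood used in herbal medicine. Whether CTX was given to the cornus mice as well is not stated in the labels, nor are age, dose or time. Libraries are described as biological replicates, but none is tied to an animal, so each p-value measures the spread between these libraries, which may be technical.

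Mitosis is driven by Cdk1 bound to A-type and B-type cyclins. Condensin compacts the chromosomes, the kinetochore ties them to spindle microtubules, and the checkpoint holds anaphase until each chromosome is attached. The anaphase-promoting complex then marks securin and the cyclins for destruction, separase opens the cohesin rings, and kinesins with the central spindle complete cytokinesis. In bone marrow these genes are carried mainly by dividing precursors of granulocytes, red cells and B cells. Many of them are held off in resting cells by the DREAM complex, which binds the cell cycle homology region, TTTGAA, while the factor NF-Y binds CCAAT.

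Most of these genes share promoter motifs that the choice of genes did not use. RefSeq promoter windows on GRCm38.p6, from 250 bases before to 50 bases after each start, were found for 47 of the 55 genes. Tpx2, Incenp, Ccna2, Aurkb, Cdc25c, Spc24, Smc4 and Kif20a had none in the table used here. Both strands were searched for TTTGAA, which reads TTCAAA on the other strand, and for CCAAT, which reads ATTGG on the other strand. The motifs can share only an end base. Counts are of genes, and a gene counted if any of its windows held the motif. TTTGAA stood in a window of 36 of the 47 genes (76.6%). The share was 1464 of 10015 tested genes with a window (14.6%) and 5466 of all 27025 genes with a window (20.2%). CCAAT stood in 34 of 47 (72.3%), against 43.2% of tested genes and 41.1% of all. Both motifs stood in the same window for 30 of 47 (63.8%), against 5.95% of tested genes and 7.97% of all. At least 2 CCAAT motifs stood in a window of 22 of the 47 genes (46.8%), against 16.6% of tested genes. A match is a description of these letters and not a mapped binding site.

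The 6 windows below are shown because they cover the span of the results. Knl1 and Kif20b had the largest positive log2 changes in the model group, Ttk was also higher, Cdca3 was lower, Cdc20 was lower in cornus than in control, and Ccnb1, whose window lacks TTTGAA, did not pass the test. Each runs 5′ to 3′ on the gene's own strand, with motif letters in capitals. The windows lie on the forward strand at chr2:119046869-119047168 for Knl1, chr19:34922108-34922407 for Kif20b, chr9:83834439-83834738 for Ttk and chr6:124829926-124830225 for Cdca3. They lie on the reverse strand at chr4:118437294-118437593 for Cdc20 and chr13:100786437-100786736 for Ccnb1.
Knl1: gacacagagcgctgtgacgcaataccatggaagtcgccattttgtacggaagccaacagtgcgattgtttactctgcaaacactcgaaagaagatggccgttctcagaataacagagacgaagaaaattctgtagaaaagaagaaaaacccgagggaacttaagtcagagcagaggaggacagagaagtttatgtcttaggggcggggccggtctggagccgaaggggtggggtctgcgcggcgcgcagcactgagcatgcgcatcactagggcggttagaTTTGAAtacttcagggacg
Kif20b: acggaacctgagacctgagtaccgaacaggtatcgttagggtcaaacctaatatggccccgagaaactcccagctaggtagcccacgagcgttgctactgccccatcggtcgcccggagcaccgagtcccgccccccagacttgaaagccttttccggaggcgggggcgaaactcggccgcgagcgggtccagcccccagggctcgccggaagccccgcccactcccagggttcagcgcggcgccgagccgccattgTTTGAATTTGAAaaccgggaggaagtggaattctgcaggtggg
Ttk: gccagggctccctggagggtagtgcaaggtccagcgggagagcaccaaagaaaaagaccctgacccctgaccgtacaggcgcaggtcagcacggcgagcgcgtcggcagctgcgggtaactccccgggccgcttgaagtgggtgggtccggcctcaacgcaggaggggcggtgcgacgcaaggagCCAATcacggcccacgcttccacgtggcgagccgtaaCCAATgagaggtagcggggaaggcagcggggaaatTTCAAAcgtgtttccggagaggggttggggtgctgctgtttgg
Cdca3: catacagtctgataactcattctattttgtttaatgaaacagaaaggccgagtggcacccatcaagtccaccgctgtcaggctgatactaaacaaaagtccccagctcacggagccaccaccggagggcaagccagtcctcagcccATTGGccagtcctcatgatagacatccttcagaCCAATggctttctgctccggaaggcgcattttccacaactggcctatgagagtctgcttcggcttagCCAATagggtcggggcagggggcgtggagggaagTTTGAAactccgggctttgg
Cdc20: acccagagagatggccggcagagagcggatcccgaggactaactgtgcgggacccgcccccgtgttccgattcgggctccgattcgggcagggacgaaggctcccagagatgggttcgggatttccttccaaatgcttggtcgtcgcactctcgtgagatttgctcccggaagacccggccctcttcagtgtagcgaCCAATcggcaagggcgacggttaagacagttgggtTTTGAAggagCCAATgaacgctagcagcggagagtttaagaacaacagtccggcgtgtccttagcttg
Ccnb1: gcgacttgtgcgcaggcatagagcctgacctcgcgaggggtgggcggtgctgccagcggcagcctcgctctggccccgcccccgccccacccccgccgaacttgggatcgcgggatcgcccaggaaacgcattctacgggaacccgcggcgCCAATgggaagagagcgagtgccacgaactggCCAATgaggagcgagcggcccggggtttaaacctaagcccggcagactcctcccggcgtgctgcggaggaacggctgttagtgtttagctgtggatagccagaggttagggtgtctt

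In these windows Knl1 held a TTTGAA whose first base lay at position 32 from the start, and no CCAAT. Kif20b held a pair of abutting TTTGAA motifs at 8 and 14. Ttk held the reverse form at 8 with CCAAT at -65 and -28. Cdca3 held TTTGAA at 31 with CCAAT at -71 and -4 and the reverse form at -104, and Cdc20 held TTTGAA at -18 between CCAAT at -53 and -8. Ccnb1 held CCAAT at -99 and -67. Genes that were higher and genes that were lower in the model group both carried the motifs: TTTGAA stood in 17 of 19 higher genes with a window and in 2 of the 3 lower ones.

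Libraries held between 13902122 and 19139771 counts. Controls 1 to 3 differed from each other by little more than counting noise, with a chi-square per degree of freedom of 1.72 to 1.95, against 13.6 to 156 for other pairs within a group. Control 4 stood apart from them, and a gene was therefore called against control only if its adjusted p was under 0.05, in the same direction, both with all 12 libraries and with controls 1 to 3 summed to 1. Hemoglobin transcripts took 2.45% to 2.49% of counts in controls 1 to 3, 9.80% in control 4, and between 0.0218% and 1.57% in the other 8 libraries. Mitochondrial transcripts took 1.42% to 1.65% of counts in control, 1.94% to 2.50% in model and 1.78% to 2.23% in cornus libraries.

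Levels between genes were compared as FPKM, the authors' deposited count scaled by gene length and library total. Over the 12 libraries, mean FPKM was highest for Mki67, the coat protein of mitotic chromosomes, at 189. Next came Smc4 at 111, Top2a at 103, Ccnb2 at 98.8 and Ube2c at 86.5. The lowest means were those of Espl1 at 9.83, Cdc25c at 7.49 and Kif18a at 4.77. All other values below are TMM-normalised CPM, in which each count is scaled by its library total and which compare libraries but not genes, or log2 changes from edgeR with their standard errors.

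Most of the genes that passed the test in model marrow were higher, with the largest changes in kinetochore and kinesin genes. In model against control, 21 of 55 rose, where 17.7% of all tested genes were called higher, and 4 fell (Birc5, Spc24, Ube2c and Cdca3), where 15.8% of all tested genes were called lower. The median log2 change of the 55 was 0.29, against -0.003 over all 12549 tested genes. Above 0 lay 41 of the 55, beside 6250 of all tested genes. The 4 model values lay wholly above the 4 control values for 26 genes (23.3% of all tested genes) and wholly below them for 4 (20.8% of all tested genes). With all 12 libraries kept separate and no second fit, 29 were higher and 4 lower, where 23.2% of all tested genes were higher and 20.9% lower.

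More genes were also higher than lower in cornus marrow, set against the same 4 control libraries. In cornus against control, 18 rose, where 18.6% of all tested genes were called higher, and 8 fell, where 19.7% of all tested genes were called lower. The median log2 change was 0.21, against -0.02 over all tested genes. The values did not overlap for 26 higher genes (24.2% of all tested genes) and 8 lower genes (24.4%). In bulk RNA, a different share of dividing cells and a different amount of RNA per dividing cell cannot be told apart.

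**Figure D1:**
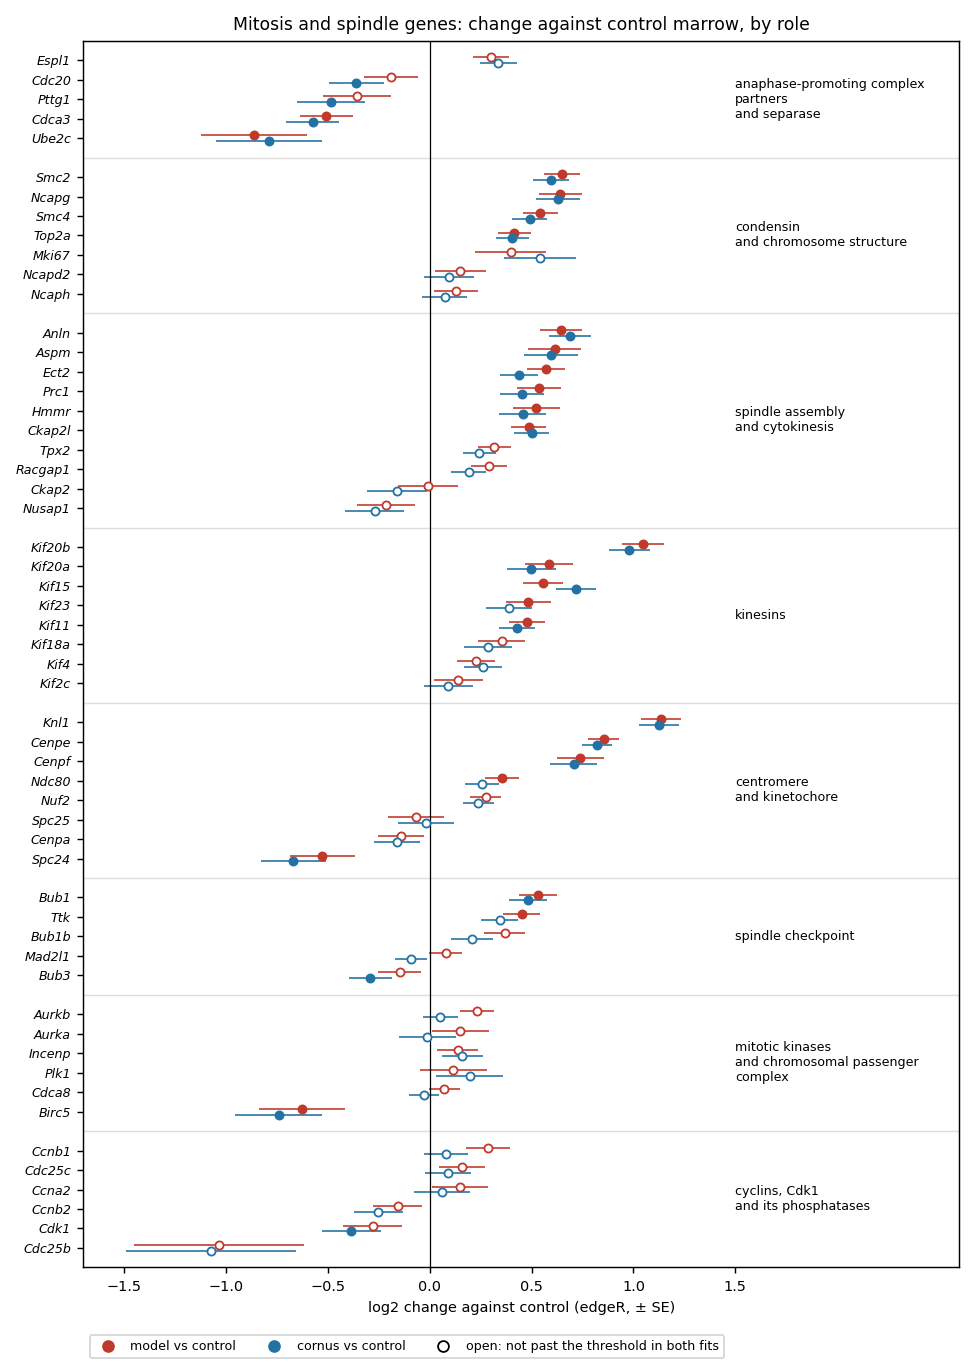
Log2 change against control with its standard error (x axis, edgeR) for each of the 55 genes (y axis), grouped by role, with model in red and cornus in blue; filled points passed the threshold in both fits. All kinesin and condensin points lie to the right of 0, and the filled points left of 0 are the 4 model and 8 cornus calls named in the text.

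None of the 6 genes that start mitosis rose. Cyclins, Cdk1 and its phosphatases had a median log2 change of -0.01 in model against control, with 0 called, and in cornus against control only Cdk1 fell (-0.39 ± 0.15, edgeR adjusted p = 0.0455). Ccnb1, the B-type cyclin partner of Cdk1, had 159, 155, 155 and 179 CPM in controls 1 to 4, 193, 210.1, 158 and 232 in model libraries 1 to 4, and 165, 176, 165 and 179.7 in cornus libraries 1 to 4. Control 4 and model library 3 overlap, and the log2 change of 0.29 ± 0.11 passed with the 12 libraries (edgeR adjusted p = 0.0476) but not with controls 1 to 3 summed (edgeR adjusted p = 0.233). Its cornus values lay lower than model by 0.21 ± 0.11 (log2 change -0.21, edgeR adjusted p = 0.295). Cdc25b, a phosphatase that activates Cdk1, had 177, 175, 180.2 and 400.0 CPM in control, 57.6, 174, 89.0 and 134 in model, and 48.8, 129, 99.997 and 165 in cornus. All 8 treated libraries lay below all 4 controls, yet the highest was 3.03 times the lowest in model and 3.39 times in cornus, the widest ranges of the 55 genes. The log2 changes of -1.03 ± 0.42 (edgeR adjusted p = 0.0617) and -1.07 ± 0.42 (edgeR adjusted p = 0.0511) did not pass. Ccna2, Ccnb2 and Cdc25c had log2 changes between -0.16 and 0.16 in model against control.

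Among the mitotic kinases and the chromosomal passenger complex, which corrects faulty chromosome attachments, Birc5 fell and no gene rose. Birc5 (survivin) had 155, 166, 162 and 308 CPM in control, 119.5, 156, 101 and 135 in model, and 103, 127, 118 and 125 in cornus. Control 4 was far above the other controls, and model library 2 reached the level of control 1. The log2 change was -0.63 ± 0.21 in model (edgeR adjusted p = 0.0303) and -0.74 ± 0.21 in cornus (edgeR adjusted p = 0.0134). Aurkb, the kinase of the complex, had 107, 106, 102 and 108 CPM in control, 138, 123, 112 and 124 in model, and 104, 99.6, 121 and 115 in cornus. The model values lay above every control, but the log2 change of 0.23 ± 0.08 passed with the 12 libraries (edgeR adjusted p = 0.0412) and not with controls 1 to 3 summed (edgeR adjusted p = 0.158). Its cornus against model change of -0.18 ± 0.08 had the smallest adjusted p of the 55 genes in that comparison (edgeR adjusted p = 0.249). Plk1 and Aurka, the polo-like and centrosomal kinases, and the scaffold genes Incenp and Cdca8 had log2 changes of 0.07 to 0.15 in model against control.

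The 2 checkpoint kinases Bub1 and Ttk rose in model marrow. Bub1 had 84.0, 81.4, 82.3 and 73.4 CPM in control, 114, 112, 101 and 137 in model, and 117, 105, 119 and 107 in cornus. All treated values lay above all controls, with log2 changes of 0.53 ± 0.09 in model (edgeR adjusted p = 0.00102) and 0.48 ± 0.09 in cornus (edgeR adjusted p = 0.00195). Ttk, the kinase that starts checkpoint signalling at unattached kinetochores, had 48.1, 44.99, 42.4 and 44.6 CPM in control, 60.9, 68.0, 53.0 and 64.3 in model, and 55.1, 61.9, 59.8 and 51.6 in cornus. Its log2 change was 0.45 ± 0.09 in model (edgeR adjusted p = 0.00208). The cornus change of 0.34 ± 0.09 missed the threshold by little with controls 1 to 3 summed (edgeR adjusted p = 0.0501). Mad2l1, which binds and restrains Cdc20, had 118, 112, 118 and 127 CPM in control, 121, 132, 110.4 and 137 in model, and 111, 111, 116 and 107 in cornus. The groups overlap, and its cornus against model log2 change was -0.17 ± 0.08 (edgeR adjusted p = 0.251). Bub1b had a model log2 change of 0.37 ± 0.10 that passed only with the 12 libraries (edgeR adjusted p = 0.0123), and Bub3 fell in cornus against control by 0.29 ± 0.11 on the log2 scale (edgeR adjusted p = 0.0415).

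The centromere and kinetochore genes held the largest rise of all 55. Before length and GC were adjusted (below), they also held a fall in the same complex as a rise. Knl1, the outer kinetochore scaffold that recruits Bub1, had 94.9, 94.5, 89.8 and 80.7 CPM in control, 192, 199, 171 and 229 in model, and 183, 196, 214 and 192 in cornus. Every treated library lay far above every control, with log2 changes of 1.13 ± 0.10 in model (edgeR adjusted p = 2.25e-05) and 1.13 ± 0.10 in cornus (edgeR adjusted p = 2.99e-05). Cenpe, the kinesin that carries chromosomes to the spindle equator, had 126, 120.4, 124 and 127 CPM in control, 228, 233, 198 and 241 in model, and 218, 216, 230.5 and 215 in cornus. Its log2 changes were 0.85 ± 0.07 in model (edgeR adjusted p = 2.26e-05) and 0.82 ± 0.07 in cornus (edgeR adjusted p = 3.22e-05).

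The 4 genes of the Ndc80 complex, which grips the microtubule end, did not move together. Ndc80 had 65.6, 68.0, 60.5 and 66.9 CPM in control, 91.3, 77.1, 74.9 and 90.7 in model, and 78.3, 75.3, 82.8 and 75.5 in cornus. It rose in model by 0.36 ± 0.08 on the log2 scale (edgeR adjusted p = 0.00486), and its cornus change of 0.26 ± 0.08 passed only with the 12 libraries. Spc24 had 49.7, 48.3, 50.7 and 67.0 CPM in control, 32.7, 35.3, 35.9 and 45.6 in model, and 29.0, 44.4, 29.7 and 32.5 in cornus. It fell by 0.53 ± 0.16 in model (edgeR adjusted p = 0.0187) and by 0.67 ± 0.16 in cornus (edgeR adjusted p = 0.00551), both on the log2 scale, with every treated value below every control. Nuf2 (0.27 ± 0.08) and Spc25 (-0.07 ± 0.14) were not called in model. With the length and GC trends of each library removed (below), Ndc80 (0.11 ± 0.08) and Spc24 (-0.28 ± 0.16) were not called in model either. Spc24 was then also not called in cornus (-0.40 ± 0.16). Without that adjustment Cenpf, a large kinetochore protein, rose by 0.74 ± 0.12 in model and by 0.71 ± 0.12 in cornus. With it Cenpf was not called (0.17 ± 0.15 in model and 0.09 ± 0.15 in cornus). Cenpa, the centromeric histone, was not called without adjustment (-0.14 ± 0.11 in model).

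**Figure D2:**
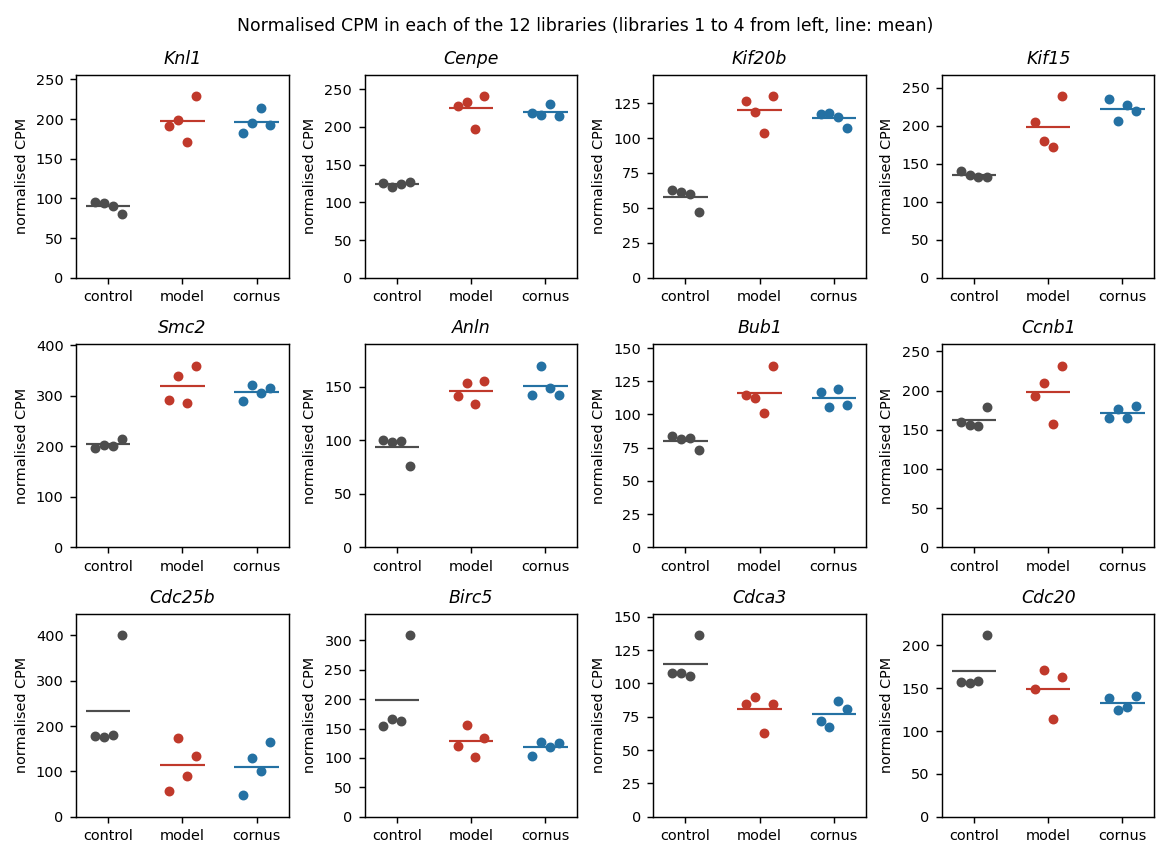
Normalised CPM (y axis, from 0) of 12 genes in control, model and cornus libraries (x axis), with 1 point per library in the order 1 to 4 and a line at the mean of 4. Knl1, Cenpe and Kif20b sit apart from control in all 8 treated libraries, while Cdc25b, Birc5 and Cdc20 have control 4 far above controls 1 to 3.

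All 8 kinesin genes had log2 changes above 0 against control in both treated groups before adjustment for length and GC. Of them 5 rose in model and 4 in cornus, where 17.7% and 18.6% of all tested genes were called higher. Kif20b, which helps the last steps of cytokinesis, had 62.9, 61.6, 60.1 and 47.3 CPM in control, 126, 119, 104 and 129.9 in model, and 117, 118, 115 and 107 in cornus. The groups were far apart, with log2 changes of 1.05 ± 0.10 in model (edgeR adjusted p = 3.06e-05) and 0.98 ± 0.10 in cornus (edgeR adjusted p = 5.08e-05). Kif15, which acts beside Kif11 in keeping spindle poles apart, had 139.7, 135, 133 and 133 CPM in control, 205, 179, 172 and 239 in model, and 236, 207, 228 and 219 in cornus. It rose by 0.56 ± 0.10 in model and by 0.72 ± 0.10 in cornus, and its cornus against model change of 0.16 ± 0.10 was the largest positive one of the 55 (edgeR adjusted p = 0.371). Kif11, the motor that separates the poles, rose by 0.48 ± 0.09 in model and by 0.43 ± 0.09 in cornus. Kif20a and Kif23, motors of the central spindle, rose by 0.59 ± 0.12 and 0.48 ± 0.11 in model. In cornus Kif20a rose by 0.50 ± 0.12 and Kif23 was not called in cornus (0.39 ± 0.11). Kif18a (0.35 ± 0.12), Kif4 (0.23 ± 0.09) and Kif2c (0.14 ± 0.12), which tune microtubule length, were not called in model. After length and GC adjustment (below), only Kif20a and Kif20b of the 8 were called, in both treated groups. Kif11 (0.18 ± 0.09), Kif15 (0.10 ± 0.10) and Kif23 (0.22 ± 0.11) were then not called in model, and Kif18a changed by -0.14 ± 0.13.

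Of the 10 spindle assembly and cytokinesis genes, 6 rose in model and 6 in cornus, and none fell. Of all tested genes, 17.7% were called higher and 15.8% lower in model, and 18.6% and 19.7% in cornus. Anln, the anillin scaffold of the contractile ring, had 101, 98.3, 99.4 and 76.4 CPM in control, 142, 154, 134 and 156 in model, and 143, 169.8, 149 and 143 in cornus. Its log2 changes were 0.64 ± 0.10 in model (edgeR adjusted p = 5.02e-04) and 0.69 ± 0.10 in cornus (edgeR adjusted p = 3.91e-04). Ect2, the exchange factor that switches on RhoA at the division plane, had 90.1, 87.6, 87.2 and 83.6 CPM in control, 135, 123, 108 and 152 in model, and 115, 119, 121 and 117 in cornus. No treated library reached down to the controls, and the log2 changes were 0.57 ± 0.09 in model and 0.44 ± 0.09 in cornus. Against model, Ect2 in cornus changed by -0.14 ± 0.09 (edgeR adjusted p = 0.427). Aspm, which acts at spindle poles, rose by 0.61 ± 0.13 in model, Prc1, the crosslinker of central spindle microtubules, by 0.54 ± 0.11, Hmmr by 0.52 ± 0.12 and Ckap2l by 0.48 ± 0.08. In cornus the changes were 0.60 ± 0.13 for Aspm, 0.45 ± 0.11 for Prc1, 0.46 ± 0.12 for Hmmr and 0.50 ± 0.08 for Ckap2l, all past the threshold. Tpx2, the activator of Aurora A (0.32 ± 0.08), and Racgap1, the partner of Kif23 (0.29 ± 0.09), passed only with the 12 libraries. Ckap2 (-0.01 ± 0.15) and Nusap1 (-0.21 ± 0.14) were not called. After length and GC adjustment (below), only Anln and Ckap2l of the 10 were called, in both treated groups. Ect2 (0.35 ± 0.09), Hmmr (0.33 ± 0.11), Prc1 (0.22 ± 0.11) and Aspm (0.15 ± 0.14) were then not called in model.

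Within condensin I, the ring that compacts chromosomes, the ring subunits Smc2 and Smc4 and the subunit Ncapg rose, while the other subunits were not called. Smc2 had 197, 202, 200.4 and 215 CPM in control, 292, 339.6, 287 and 359 in model, and 289, 322, 306 and 315 in cornus. Smc4 had 445, 441, 453 and 457 CPM in control, 636, 702, 566 and 709.8 in model, and 601, 656, 642 and 623 in cornus. Both were well apart from control in all 8 treated libraries, with model log2 changes of 0.65 ± 0.09 (Smc2) and 0.54 ± 0.09 (Smc4) and cornus changes of 0.59 ± 0.09 and 0.49 ± 0.09. Ncapg rose by 0.64 ± 0.11 in model and by 0.63 ± 0.11 in cornus, whereas Ncapd2 (0.15 ± 0.12) and Ncaph (0.13 ± 0.11) were not called. With the length and GC trends of each library removed (below), none of these subunits was called in model or in cornus. In model, Smc2 (0.41 ± 0.09, edgeR adjusted p = 0.00499) and Smc4 (0.34 ± 0.08, edgeR adjusted p = 0.00885) then passed only with the 12 libraries. Ncapg (0.22 ± 0.11), Ncapd2 (0.12 ± 0.13) and Ncaph (0.12 ± 0.11) then did not pass in model. With length alone adjusted, Smc2, Smc4 and Ncapg were called in both treated groups, and with GC alone adjusted they were not. Top2a, the enzyme that untangles sister DNA, rose by 0.41 ± 0.08 in both treated groups. With both length and GC adjusted it changed by 0.06 ± 0.08 in each and was not called. Mki67 had 1397, 1399.8, 1355 and 1903 CPM in control, 1616, 2446, 1623 and 2285 in model, and 1806, 2364, 2138 and 2502 in cornus. Control 4 overlaps the treated libraries, and the model change of 0.40 ± 0.18 (edgeR adjusted p = 0.0852) and the cornus against model change of 0.14 ± 0.18 (edgeR adjusted p = 0.676) did not pass.

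Of the 5 partners of the anaphase-promoting complex and separase, 2 fell in model and 4 in cornus, and none rose. Of all tested genes, 15.8% were called lower and 17.7% higher in model, and 19.7% and 18.6% in cornus. After length and GC adjustment (below), none of the 5 was called in either treated group. Cdca3 then changed by -0.32 ± 0.12 and Ube2c by -0.55 ± 0.23 in model. Cdca3, also called trigger of mitotic entry, had 108, 108, 105 and 136 CPM in control, 84.8, 89.4, 62.8 and 84.5 in model, and 72.1, 67.0, 87.1 and 80.6 in cornus. All treated values lay below all controls, with log2 changes of -0.51 ± 0.13 in model (edgeR adjusted p = 0.00767) and -0.57 ± 0.13 in cornus (edgeR adjusted p = 0.00389). Ube2c, the ubiquitin-conjugating enzyme of the complex, fell by 0.86 ± 0.26 in model and by 0.79 ± 0.26 in cornus on the log2 scale. It had 247, 244, 268 and 515 CPM in control, 147, 236, 132 and 186 in model, and 146, 197, 166 and 227 in cornus, with no overlap between control and treated libraries. Cdc20, the activator of the complex, had 157, 156, 158 and 212 CPM in control, 149, 172, 114 and 163 in model, and 138, 125, 128 and 141 in cornus. It fell in cornus against control (-0.36 ± 0.13, edgeR adjusted p = 0.0433), was not called in model against control (-0.19 ± 0.13), and changed by -0.17 ± 0.13 between cornus and model (edgeR adjusted p = 0.495). Pttg1, the securin that restrains separase, fell in cornus against control (-0.49 ± 0.17). Espl1, separase itself, had 72.6, 70.1, 77.5 and 74.2 CPM in control, 91.4, 97.4, 76.2 and 97.7 in model, and 86.7, 92.9, 90.0 and 102 in cornus. Model library 3 overlaps control, and the log2 change of 0.30 ± 0.09 passed only with the 12 libraries (edgeR adjusted p = 0.0177).

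Calls against control depended on control 4. Without control 4, 6 genes were higher and 0 lower in model (Kif20b, Cenpf, Knl1, Smc2, Anln and Cenpe), and 5 higher and 0 lower in cornus (the same without Smc2). Over all tested genes 5.28% were then higher and 4.36% lower in model, and 4.92% and 3.31% in cornus, so calls became fewer across the table. That fit compares the treated libraries with the sum of controls 1 to 3 as 1 sample, which is assumed to vary like the other groups. Control 4 was the highest control for 38 of the 55 genes, where it was highest for 44.4% of all tested genes, and its summed level of the 55 was 11013 CPM, against 8964 to 9023 CPM in controls 1 to 3. Model libraries 1 to 4 summed to 10750, 12672, 9694 and 12454 CPM, and cornus libraries 1 to 4 to 10382, 11501, 11392 and 11804 CPM. On this sum, in which genes with many counts weigh most, control 4 lies above model libraries 1 and 3 and cornus library 1. By the median log2 ratio per gene to controls 1 to 3, control 4 (0.13) lies above model library 3 (0.08) only. Model library 1 (0.30) and cornus library 1 (0.21) lie above it. Model library 3 was the lowest of its group for 51 of 55 genes, where it was lowest for 24.6% of all tested genes.

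**Figure D3:**
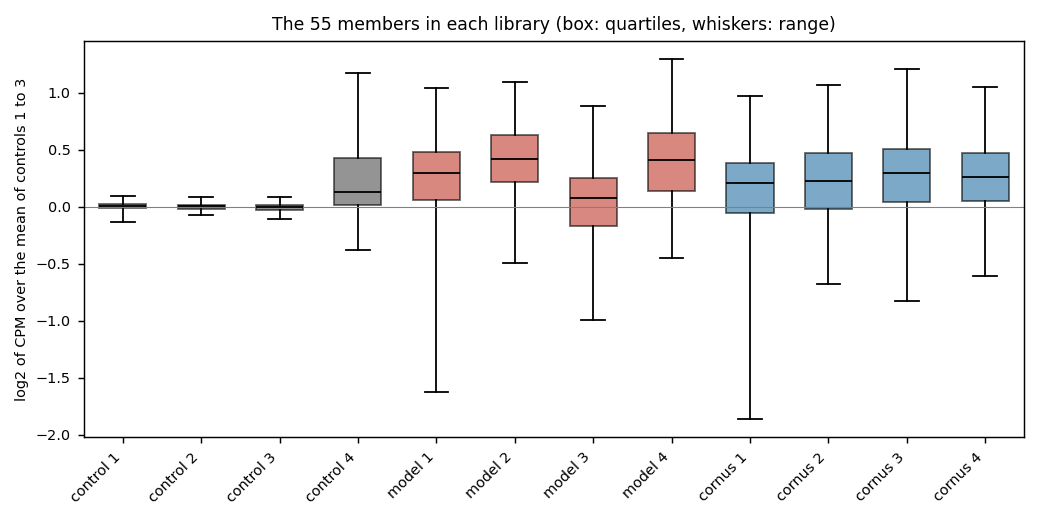
Log2 ratio of each gene's CPM to its mean in controls 1 to 3 (y axis) for the 55 genes in each of the 12 libraries (x axis), with boxes at the quartiles and whiskers at the range. Medians are 0.13 in control 4, 0.08 in model library 3, 0.30 to 0.42 in the other model libraries and 0.21 to 0.29 in the cornus libraries.

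Cornus and model marrow were not told apart by any of these genes. In cornus against model, 0 of 55 were called higher (0.0797% of all tested genes) and 0 lower (0.0717%) by edgeR. An unadjusted edgeR p under 0.05 was found for 0 of the 55. At that level 1256 of all 12549 tested genes were higher and 1359 lower. DESeq2 called 0 of the 55, where it called 2.4% of its 17168 genes higher and 2.16% lower. No gene had wholly separate values, where 6.05% of all tested genes were wholly higher and 7.45% wholly lower in cornus. Log2 changes ran from -0.21 (Ccnb1) to 0.16 (Kif15), with a median of -0.07 against -0.02 over all tested genes. Below 0 lay 45 of the 55, beside 6643 of all 12549 tested genes. These comparisons do not show that the groups are alike. The 95% interval of the difference ran from -0.22 to 0.20 for Knl1, from -0.29 to 0.15 for Kif20b, from -0.44 to 0.03 for Ccnb1 and from -0.94 to 0.86 for Cdc25b. Without model library 3 the median was -0.15, and still 0 genes were called.

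Change against control went with gene length. Across the 55 genes, Spearman's rho between deposited gene length and log2 change was 0.65 for the model change and 0.68 for the cornus change from control, and over all 12549 tested genes it was 0.32 and 0.36. For the cornus against model change rho was 0.36 for the 55 genes and 0.11 over all tested genes. These are correlations across genes, which share libraries and are not independent. Of the 21 genes in the longest tertile of tested genes (6267 bases or more among these genes), 13 rose and 0 fell in model, 61.9% higher against 32.3% of all tested genes of that tertile. Of the 12 in the shortest tertile (3215 bases or less among these genes), 1 rose and 3 fell, against 5.62% higher and 25.2% lower of all tested genes there. Genes that rose had a median length of 7066 bases (3137 to 15433), and the 4 that fell a median of 2733 bases (2573 to 3402). GC content, taken from the longest GENCODE M21 transcript, ran the other way, with a rho of -0.58 for the 55 and -0.29 for all genes in model.

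**Figure D4:**
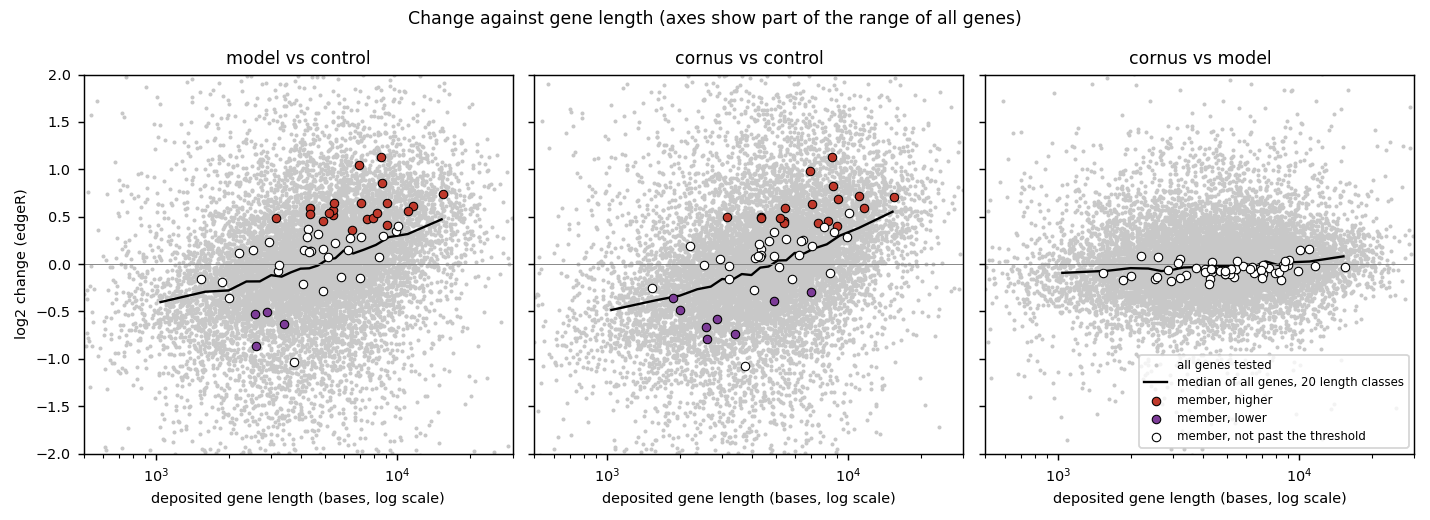
Log2 change (y axis) against deposited gene length on a log scale (x axis) for all tested genes (grey), their median in 20 length classes (line) and the 55 genes (outlined points, coloured by call), in 3 comparisons. Against control the line climbs from below 0 for short genes to above 0 for long ones, and most called higher genes lie in the long range, with Ckap2l (3137 bases) an exception among the higher and Bub3 (7006 bases) among the lower; against model it stays near 0.

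With length and GC trends removed from each library, fewer genes passed the test. In model against control, the length adjustment left 14 higher and 1 lower, where 13.2% of all tested genes were higher and 13.2% lower. The GC adjustment left 6 higher and 5 lower, where 14.7% of all tested genes were higher and 14.8% lower. Both together left 8 higher and 3 lower, where 11.8% of all tested genes were higher and 12.9% lower. So the share of higher genes lay below that of all tested genes with GC adjusted and near it with both adjusted. Of those 8, 7 were also called without adjustment (Anln, Bub1, Cenpe, Ckap2l, Kif20a, Kif20b and Knl1), and Aurkb was added. The 3 lower genes were then Birc5, Bub3 and Mad2l1. In cornus against control under both adjustments 7 were higher and 4 lower, where 13.2% of all tested genes were higher and 15.0% lower, so the share of higher genes was near that of all genes and the share of lower genes below it. Cdc20, called lower in cornus without adjustment, then had a log2 change of 0.04 ± 0.11. Knl1 kept a log2 change of 0.70 ± 0.09 in model and 0.70 ± 0.09 in cornus, and Kif20b kept 0.73 ± 0.08 and 0.70 ± 0.08. Knl1, Kif20b, Cenpe and Anln were called higher against control in both treated groups under all 22 alternatives tried, and no member with a call had the opposite call in any of them. These adjustments were chosen after seeing the data.

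**Figure D5:**
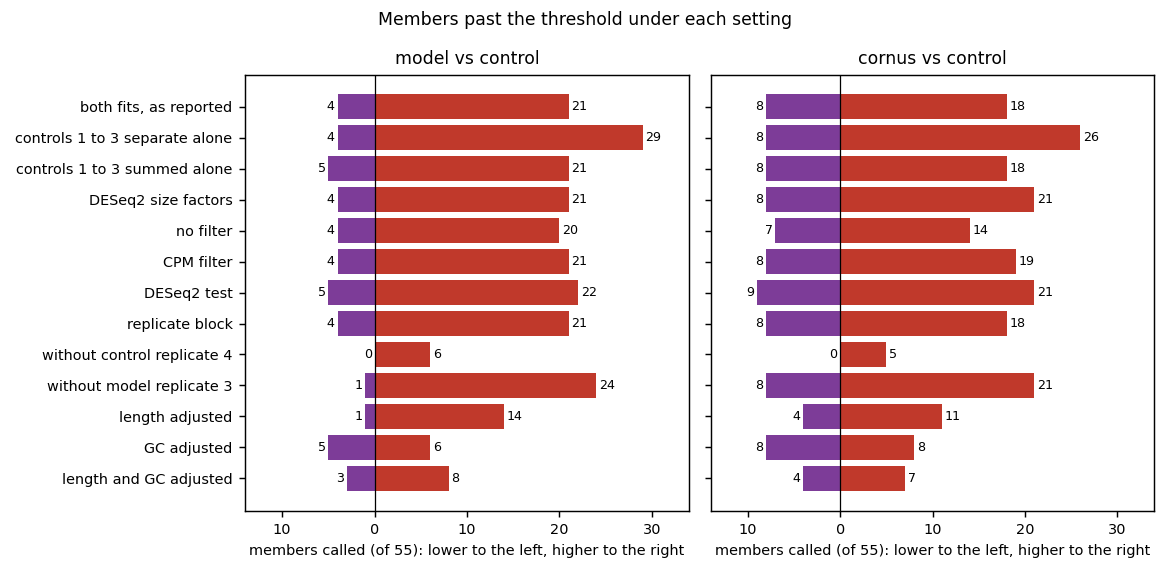
Number of the 55 genes called higher (red, to the right) and lower (purple, to the left) against control (x axis) under the reported rule and 12 alternatives (y axis), for model and for cornus. Calls in model go from 21 higher and 4 lower to 6 and 0 without control 4 and to 8 and 3 under the length and GC adjustment.

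Reads shared with neighbours limit some values. The deposited spans of 13 of the 55 genes overlap another gene on the opposite strand, and the strand setting of the counting is not given in the sources used here. Among called genes this touches Kif20a, beside Cdc23 (mean 61.1 CPM), Ncapg, beside Lcorl (52.3 CPM), Prc1, beside Rccd1 (11.3 CPM), Cdc20, beside Elovl1 (97.9 CPM), Bub3, beside Fgfr2 (0.682 CPM), and Ube2c, beside Tnnc2 (0.028 CPM). Ccnb1, Ccnb2 and Kif4 have pseudogene copies that could take or add reads.

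Other genes of the same processes were described beside the 17.7% higher and 15.8% lower over all tested genes in model, and the 18.6% and 19.7% in cornus. In cohesin and condensin II, 8 of 14 rose and 0 fell in model (median log2 change 0.39), among them the cohesin loader Nipbl (0.71 ± 0.09), the cohesin subunit Stag1 (0.59 ± 0.08) and the condensin II subunits Ncapg2 (0.85 ± 0.11) and Ncapd3 (0.61 ± 0.09). Of 21 further spindle and cytokinesis genes, 6 rose and 1 fell (median 0.12), with Cit, the citron kinase of the midbody, at 1.05 ± 0.10, Kif14 at 0.77 ± 0.10, Ckap5 at 0.62 ± 0.08 and Arhgap11a at 0.61 ± 0.08. Of 30 further kinetochore genes, 6 rose and 1 fell (median 0.08), with Cenpu at 0.93 ± 0.14, Zwilch at 0.78 ± 0.11 and Hjurp, the Cenpa chaperone, at 0.53 ± 0.09. Against control, cornus had 8 higher and 2 lower of the 14, 6 and 4 of the 21, and 5 and 4 of the 30. The share of higher genes among the 30 thus lay near that of all genes in both comparisons, and the share of lower genes below it.

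Regulators of entry and exit showed calls in both directions, and their shares, set beside those of all tested genes, are not a result about these lists. Of 17 subunits and regulators of the anaphase-promoting complex, 3 rose (Anapc1 by 0.64 ± 0.11, Cdc23 by 0.46 ± 0.07 and Cdc27 by 0.43 ± 0.07) and 4 fell in model, including Anapc7 (-0.43 ± 0.08). Of 19 mitotic entry regulators, 4 rose and 4 fell, with Mastl, the Greatwall kinase that blocks a Cdk1-opposing phosphatase, at 0.97 ± 0.12, Cdc25a at 0.60 ± 0.08, Ensa, the substrate of Mastl, at -0.34 ± 0.07 and Lin37, a DREAM subunit, at -0.52 ± 0.11. Of 9 tested cell cycle inhibitors, 1 rose and 3 fell. The pocket protein Rbl1 rose by 0.87 ± 0.09, Cdkn2d (-0.89 ± 0.13), Gadd45a (-1.66 ± 0.33) and Cdkn1b (-0.33 ± 0.08) fell. Of 20 S phase genes, 0 rose and 1 fell in model (Pcna, -0.47 ± 0.14), with a median of -0.02, and in cornus against model 0 of these were called, with a median of -0.17.

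Several summed marker levels of the marrow's dividing and mature cells also differed between the groups. Calls among the markers in model stand beside 17.7% of all tested genes called higher and 15.8% called lower. Summed over 6 genes of granulocyte precursors (such as the primary granule genes Mpo and Elane), CPM ran from 2695 to 3187 in control, 4606 to 7796 in model and 3980 to 7213 in cornus, and 5 of 6 rose in model. Summed over 8 erythroid precursor genes, CPM was 2193 to 2224 in controls 1 to 3, 4487 in control 4, 453 to 2319 in model and 179 to 1967 in cornus, and 1 of 8 fell in model. Summed over 8 genes of pro-B and pre-B cells, CPM was 614 to 643 in controls 1 to 3, 1384 in control 4, 133 to 188 in model and 8.52 to 218 in cornus, and 3 of 8 fell in model. Over 6 stem and progenitor genes the sums ran from 137 to 172 in control, 194 to 267 in model and 97.3 to 211 in cornus, and 1 of 6 rose in model. The calls of 1 of 8 erythroid genes and 1 of 6 stem and progenitor genes lie near the shares of all tested genes. Over 6 mature neutrophil genes they ran from 11754 to 18570 in control, 5151 to 12701 in model and 14569 to 22036 in cornus, and 4 of 6 fell in model. Mature B cell genes summed to 305 to 594 CPM in control, at most 19.3 in model and at most 23.6 in cornus, with all 5 lower in model, and T and NK cell genes to 149 to 155 CPM in control, 106 to 148 in model and 90.1 to 171 in cornus, with 3 of 6 lower. No marker was at 0 in every library, though the mature B cell gene Ms4a1 had at most 3 counts in any treated library, and Rag2 and Pax5 of the B cell precursors had 0 counts in cornus library 1. The part of these shifts in cell makeup in the results above was not tested.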

How the data were processed

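Poly(A)-selected RNA from 12 mouse bone marrow libraries was amplified by PCR over 15 cycles without molecular identifiers, per the labels' protocols. The deposited table gives whole read counts per gene and FPKM, made by the authors with fastp 0.22.0, HISAT2 2.1.0 and HTSeq 0.9.1, per the submitters' processing notes. Build, annotation and strand setting are not given in the sources used here, so the deposited lengths were used and sequences and GC content come from GRCm38 references. FPKM, the authors' deposited unit, equals the count scaled by gene length and library total, and served only to order genes.

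Counts of 12549 genes entered the quasi-likelihood F test of edgeR 4.0.16 (R 4.3.3; TMM factors, default filterByExpr) with all 12 libraries in 1 fit, group as the only term and Benjamini-Hochberg adjustment over all genes at 0.05. Each standard error is the size of the log2 change divided by the root of its F value. Controls 1 to 3, which hardly differ, were also summed to 1 sample, and calls against control needed both fits. Alternatives were DESeq2 1.42.0, its size factors, no filter or a CPM filter, a replicate block, leaving out each library, and length and GC curves (lowess, span 0.3) removed per library. In each role every library's values are given for the 2 genes with the smallest p in model against control and the 1 in cornus against model; in other lists, the 4 with the smallest p are named, apart from a withheld item that is not reported here. Ube2c and Spc24 values were added after they were seen. Members and lists were chosen with earlier results of these data known.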

Additional observations from a re-analysis of the deposited data

Results flagged for a closer look

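In 24 of the 165 sets of 4 libraries examined (55 genes in 3 groups), 1 library lay far outside the range of the other 3. Chance flags about 1 in 20 such sets, and 21 of the 24 concern control 4, whose 3 companions were nearly alike, which makes any distance from them large against their range. Control 4 was the highest control for the cell cycle drivers Ccna2 at 244 CPM, Ccnb2 at 205 CPM, Cdk1 at 244 CPM and Cdc25b at 400.0 CPM. It was also highest for Plk1 at 113 CPM, Aurka at 106 CPM, Birc5 at 308 CPM, Cdca8 at 137 CPM, Incenp at 263 CPM and Bub3 at 197 CPM. The same held for Cenpa at 228 CPM, Spc24 at 67.0 CPM, Spc25 at 86.8 CPM, Nusap1 at 274 CPM, Ncapd2 at 355 CPM and Mki67 at 1903 CPM. It held too for Cdc20 at 212 CPM, Ube2c at 515 CPM, Pttg1 at 158 CPM and Cdca3 at 136 CPM, while Anln was lowest in control 4 at 76.4 CPM. In the cornus group, Plk1 was highest in library 3 at 118 CPM, Kif4 was highest in library 4 at 101 CPM and Ncaph was lowest in library 1 at 103 CPM. Control 4 also held the most hemoglobin (9.80% of counts), the most erythroid precursor RNA (4487 CPM summed) and the most pro-B and pre-B RNA (1384 CPM summed), and the part of these in its mitotic gene levels was not tested.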

How the results depend on the processing

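Counts of called genes are given as higher and lower of 55. In model against control (21 and 4), they were 14 and 1 with length adjusted, 6 and 5 with GC adjusted and 8 and 3 with both, and in cornus against control (18 and 8) they were 11 and 4, 8 and 8, and 7 and 4. In the same order, all tested genes were higher and lower in 13.2% and 13.2%, 14.7% and 14.8%, and 11.8% and 12.9% in model, and in 13.6% and 15.2%, 17.1% and 18.3%, and 13.2% and 15.0% in cornus. Leaving out 1 library gave 6 to 24 higher and 0 to 5 lower in model, and 5 to 21 higher and 0 to 8 lower in cornus. The lowest counts were those without control 4 (6 and 0 in model, 5 and 0 in cornus). Leaving out any library but control 4 gave 13.3% to 17.6% of all tested genes higher and 11.4% to 16.2% lower in model. In cornus it gave 15.6% to 18.7% and 14.9% to 19.5%. Lower calls among the 55 were also fewer without model 1 (2) or model 3 (1) in model against control. The same held without cornus 1 (4), 2 (4) or 3 (3) in cornus against control. Why these moved was not tested. Without control 4 the summed fit holds 1 control.

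In cornus against model all 21 alternatives gave 0 and 0 among the 55 genes. Over all tested genes the calls there varied, from 0 and 0 with the replicate block to 412 and 370 by DESeq2 and 499 and 536 without control 4. No called gene took the opposite call, but some values crossed 0. Cdc20 in cornus against control went from -0.36 (lower) to 0.04 (not called), and Mad2l1 in model against control from 0.08 (not called) to -0.31 (lower), with length and GC adjusted. The replicate block, set in the fit of separate libraries only, gave 21 and 4 in model, 18 and 8 in cornus, and 0 and 0 between them. With it 17.7% and 15.7% of all tested genes were called in model, and 18.6% and 19.6% in cornus. Deviations of each library's log CPM from its group mean were correlated between libraries of different groups. Same-numbered libraries gave -0.14 to 0.45 (12 pairs, median 0.13) and others -0.49 to 0.37 (36 pairs, median -0.04). The ranges overlap though the medians differ, and the numbers were not taken as pairs. DESeq2 gave 22 and 5 in model and 21 and 9 in cornus. Of its 17168 genes it called 14.5% and 12.8% in model, and 15.8% and 14.6% in cornus. DESeq2 size factors gave 21 and 4 and 21 and 8, where all tested genes gave 17.5% and 15.8%, and 19.2% and 18.7%. No filter gave 20 and 4 and 14 and 7, where all 17168 genes gave 11.4% and 11%, and 12.1% and 14%. A CPM filter gave 21 and 4 and 19 and 8, where its 12058 genes gave 18.2% and 16%, and 19.4% and 19.7%. Depth of 13902122 to 19139771 counts and 4 libraries a group set the intervals given.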
